A study of Mus musculus with 6 samples.

Results

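Among 49164 genes with values in the olfactory epithelium of sFlt1 and control mice, 9 genes were followed here. The first 7 were taken as markers of T and natural killer (NK) lymphocytes. They are the T cell receptor chains Cd3d, Cd3e and Cd3g, the coreceptors Cd4 and Cd8a, and the cytotoxic granule genes Nkg7 and Gzma. The other 2 are Tagap and Tnfsf18, which cells other than lymphocytes also make. Tagap and Tnfsf18 were chosen by their counts in these same libraries, because they were higher in sFlt1 mice, so their difference between the groups is described with no test. Levels are given as CPM, a gene's counts relative to the library size after scaling by the TMM method.

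The libraries are bulk RNA-seq of the nasal conchae of 6 mice aged 3 months, c57Bl6/ICR crossbreds that are labelled male. The 3 sFlt1 mice came from crossing a camk2a-tTa driver line with a tet-sFlt1 line, and their transgene was switched on by removing tetracycline from embryonic day 13.5. Soluble Flt1 is a decoy receptor for VEGF, and the Camk2a promoter is known mainly for its activity in forebrain neurons. By MRI at 2 months the olfactory bulbs of sFlt1 replicates 1, 2 and 3 had 28%, 29% and 14% of the normal size, while the 3 controls are labelled wild type with normal bulbs and no treatment. Library totals ran from 30300680 to 44449029 counts in sFlt1 mice and from 28832424 to 46444862 counts in controls. Flt1 itself, which would include transgene reads only if they map to the gene, had 6.42, 2.36 and 9.79 CPM in sFlt1 replicates 1, 2 and 3 and 3.71, 2.81 and 11.1 CPM in control replicates 1, 2 and 3.

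2 libraries went against the label male. Xist, the RNA that silences an X chromosome in females, had 524 CPM in sFlt1 replicate 3 and 710 CPM in control replicate 1, and at most 0.371 CPM in the other 4 libraries. Kdm5d, Ddx3y and Eif2s3y, which are Y-linked, together had 0.115 and 0.089 CPM in those libraries, against 134 to 160 CPM in the others. Each group holds 1 such library, and results are given with and without both. Markers of mature olfactory neurons matched the labelled tissue: Omp had 466 to 2370 CPM in sFlt1 mice and 2840 to 4060 CPM in controls. Libraries also differed in other tissue. The bulb interneuron and brain markers summed to 14.1 to 62.8 CPM in sFlt1 mice, against 90.7, 83.3 and 1316 CPM in control replicates 1, 2 and 3.

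T cells recognise peptides through the T cell receptor, whose signal enters the cell through the Cd3 chains, while Cd4 and Cd8a bind the MHC molecules that present those peptides. Cytotoxic T cells and NK cells kill through granules that hold granzymes such as Gzma. Tagap encodes a GTPase activating protein of activated lymphocytes, which in mouse thymocytes is linked to their passage from cortex to medulla, and it is also active in myeloid cells. Tnfsf18, or GITR ligand, is a TNF superfamily member made by antigen-presenting and endothelial cells that binds Tnfrsf18 (GITR) on T cells.

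The promoters of the 2 picked genes are shown because NFAT is a main factor of T cell activation, and because only that of Tnfsf18 held the exact letters TATAAA. The capitals mark the NFAT core GGAAA and the TATA box TATAAA, each searched on both strands, so TTTCC is the core read on the other strand. The sequences are from RefSeq on the build GRCm38.p6, 250 bases before to 50 bases after each start. Tagap is at chr17:7925750-7926049 and Tnfsf18 at chr1:161494407-161494706, both on the plus strand.
Tagap: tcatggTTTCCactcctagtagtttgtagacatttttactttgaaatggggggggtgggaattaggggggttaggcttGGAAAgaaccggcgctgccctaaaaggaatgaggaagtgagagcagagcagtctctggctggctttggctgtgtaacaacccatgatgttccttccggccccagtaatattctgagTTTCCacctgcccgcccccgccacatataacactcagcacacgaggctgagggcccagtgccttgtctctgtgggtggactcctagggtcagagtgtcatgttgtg
Tnfsf18: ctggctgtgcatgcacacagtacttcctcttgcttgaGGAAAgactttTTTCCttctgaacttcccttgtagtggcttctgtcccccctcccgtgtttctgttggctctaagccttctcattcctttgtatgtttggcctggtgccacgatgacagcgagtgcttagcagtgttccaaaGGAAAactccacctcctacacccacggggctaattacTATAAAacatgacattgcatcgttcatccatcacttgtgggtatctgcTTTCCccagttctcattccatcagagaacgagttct
The Tagap promoter held 3 matches to the NFAT core and the Tnfsf18 promoter 4. The core is common, with at least 1 match in 61.3% of all 32851 promoters of that length, and all 8 members with a RefSeq promoter had one. A TATAAA match stood 34 bases before the start of Tnfsf18, at position -34, and none was found in the other 7 promoters, while 13.6% of all promoters held one. Only exact letters were searched, and the Tagap sequence holds the near match tataac, so a lack of a TATA box is not shown. These matches describe the letters and do not show that a factor binds.

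Tagap lies on chromosome 17 from 8144832 to 8153729 (plus strand, GRCm39, ENSMUSG00000033450). It had 125, 309 and 190 counts in sFlt1 replicates 1, 2 and 3, against 34, 22 and 38 counts in control replicates 1, 2 and 3. As CPM these were 4.39, 6.74 and 4.37 in sFlt1 mice, against 1.01, 0.784 and 0.849 in controls. Every sFlt1 library stood above every control library, and the lowest sFlt1 value was 4.33 times the highest control value. The means were 5.17 ± 1.37 CPM in sFlt1 mice and 0.88 ± 0.116 CPM in controls (SD, n = 3 each), a log2 fold change of 2.55 (SE 0.41) by edgeR. Of all 19899 genes tested, 77, Tagap included, had a log2 fold change at least as high. It stayed between 2.31 and 2.69 when any of the 6 libraries was left out, and was 2.77 without both libraries with Xist reads.

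Tagap is overlapped on the other strand by the long noncoding RNA E430024P14Rik. The sources used here do not say whether counting used strand, and without strand the reads of overlapping genes cannot be told apart. E430024P14Rik had 2.56, 4.23 and 1.22 CPM in sFlt1 replicates 1, 2 and 3, against 2.82, 2.99 and 3.33 CPM in control replicates 1, 2 and 3. Its groups overlapped (log2 fold change -0.19, SE 0.51, edgeR adjusted p = 0.903). Tagap1, a gene of similar name within 2 Mb of Tagap, had 9.20, 5.02 and 13.1 CPM in sFlt1 replicates 1, 2 and 3. In control replicates 1, 2 and 3 Tagap1 had 12.4, 13.5 and 12.6 CPM (log2 fold change -0.50, SE 0.38, edgeR adjusted p = 0.639). How reads were split between Tagap and Tagap1 is not known.

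Tnfsf18 lies on chromosome 1 from 161322224 to 161332859 (plus strand, GRCm39, ENSMUSG00000066755). It had 94, 284 and 143 counts in sFlt1 replicates 1, 2 and 3, against 8, 33 and 18 counts in control replicates 1, 2 and 3. As CPM these were 3.30, 6.2 and 3.29 in sFlt1 mice, against 0.237, 1.18 and 0.402 in controls. The groups did not overlap, and sFlt1 replicate 2 was the highest library for both picked genes. The lowest sFlt1 value was 2.80 times the highest control value, that of control replicate 2. The means were 4.26 ± 1.68 CPM in sFlt1 mice and 0.605 ± 0.501 CPM in controls (SD, n = 3 each), a log2 fold change of 2.83 (SE 0.7). A value at least as high was found for 49 tested genes, Tnfsf18 included. Without control replicate 2 it was 3.71, without any other single library it was 2.45 to 2.99, and without both libraries with Xist reads it was 2.61.

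**Figure D1:**
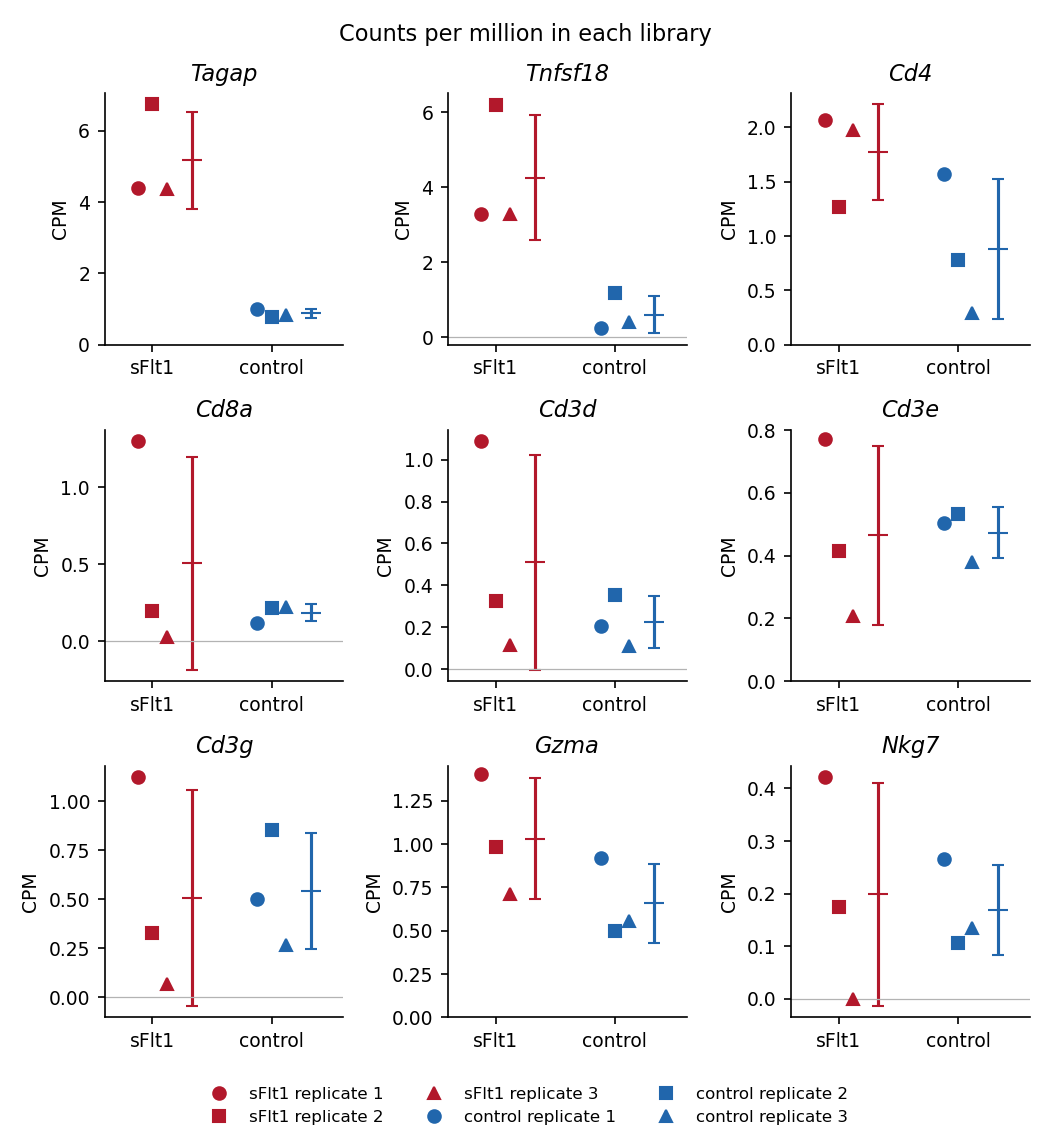
CPM of each of the 9 genes in every library (points, with the mean and SD beside them, n = 3 mice each), sFlt1 left of control, on a linear axis that differs between panels. Tagap and Tnfsf18 are the panels whose groups do not overlap, with lowest sFlt1 values of 4.37 and 3.29 CPM against highest control values of 1.01 and 1.18 CPM.

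Tnfrsf18, the receptor that Tnfsf18 binds, had 14, 15 and 7 counts in sFlt1 replicates 1, 2 and 3, against 23, 6 and 6 counts in control replicates 1, 2 and 3. These are 0.161 to 0.491 CPM in sFlt1 mice and 0.134 to 0.682 CPM in controls, and the groups overlapped (log2 fold change -0.08, SE 0.75, edgeR adjusted p = 0.972). At so few counts a moderate difference was not detectable. Tnfsf4, the OX40 ligand gene 76.2 kb from Tnfsf18, had 24 counts over all 6 libraries and did not pass the filter.

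The Cd3 chains on chromosome 9 carry the receptor's signal and stand near the lower end of what these libraries can measure. Cd3e (44910038 to 44920925, minus strand) had 22, 19 and 9 counts in sFlt1 replicates 1, 2 and 3, against 17, 15 and 17 counts in control replicates 1, 2 and 3. Its means were 0.465 ± 0.286 CPM in sFlt1 mice and 0.473 ± 0.0818 CPM in controls (SD, n = 3 each), and edgeR put the log2 fold change at -0.04 (SE 0.57, adjusted p = 0.982). The groups overlapped and their means were nearly equal, though with 9 to 22 counts a library the precision is low. Cd3g (44880870 to 44891729, minus strand) had 32, 15 and 3 counts in sFlt1 replicates 1, 2 and 3, against 17, 24 and 12 counts in control replicates 1, 2 and 3. EdgeR put the log2 fold change at -0.12 (SE 0.94, adjusted p = 0.968). For both chains the sign of the estimate followed which mouse was left out, and was positive without both libraries with Xist reads (Cd3e 0.38, Cd3g 0.38).

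Cd3d (44893084 to 44898637, plus strand) sits 1.35 kb from Cd3g. It had 31, 15 and 5 counts in sFlt1 replicates 1, 2 and 3, against 7, 10 and 5 counts in control replicates 1, 2 and 3. EdgeR put the log2 fold change at 1.17 (SE 0.88, adjusted p = 0.637), and at 0.02 without sFlt1 replicate 1. The 3 chains summed to 85, 49 and 17 counts in sFlt1 replicates 1, 2 and 3, against 41, 49 and 34 counts in control replicates 1, 2 and 3. As CPM the sums were 2.98, 1.07 and 0.391 in sFlt1 mice, against 1.22, 1.75 and 0.76 in controls. Both the highest and the lowest library were sFlt1 mice.

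Cd4, which marks helper T cells and is also made by some macrophages and dendritic cells, lies on chromosome 6 (124841655 to 124865184, minus strand). It had 59, 58 and 86 counts in sFlt1 replicates 1, 2 and 3, against 53, 22 and 13 counts in control replicates 1, 2 and 3. The means were 1.77 ± 0.44 CPM in sFlt1 mice and 0.882 ± 0.646 CPM in controls (SD, n = 3 each), and sFlt1 replicate 2 at 1.27 CPM lay below control replicate 1 at 1.57 CPM. By edgeR the log2 fold change came to 1.01 (SE 0.65, adjusted p = 0.587), to 0.58 without control replicate 3 and to 1.74 without control replicate 1. Without both libraries with Xist reads it was 1.65 (edgeR adjusted p = 0.437).

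Cd8a, which marks cytotoxic T cells (chromosome 6, 71350411 to 71356157, plus strand), had 37, 9 and 1 counts in sFlt1 replicates 1, 2 and 3, against 4, 6 and 10 counts in control replicates 1, 2 and 3. It did not pass the filter on low counts, and the unfiltered edgeR fit gave a log2 fold change of 1.39 with an adjusted p of 0.706. Its level in sFlt1 replicate 1, 1.30 CPM (95% Poisson interval 0.914 to 1.79), stood above the other 5 libraries, of which the highest, control replicate 3, had 0.224 CPM (0.107 to 0.411). Such intervals cover counting error only. Cd4 and Cd8a did not move together over the libraries: there were 1.59, 6.44 and 86.0 Cd4 counts per Cd8a count in sFlt1 replicates 1, 2 and 3, against 13.3, 3.67 and 1.30 in control replicates 1, 2 and 3, where the 86.0 rests on 1 Cd8a count.

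Gzma, a granzyme of cytotoxic T and NK cells (chromosome 13, 113230359 to 113237515, minus strand), had 40, 45 and 31 counts in sFlt1 replicates 1, 2 and 3, against 31, 14 and 25 counts in control replicates 1, 2 and 3. Its means were 1.03 ± 0.349 CPM in sFlt1 mice and 0.659 ± 0.228 CPM in controls (SD, n = 3 each), and edgeR put the log2 fold change at 0.64 (SE 0.48, adjusted p = 0.634). The groups overlapped. Nkg7, a granule membrane protein (chromosome 7, 43086497 to 43087673, plus strand), had 12, 8 and 0 counts in sFlt1 replicates 1, 2 and 3, against 9, 3 and 6 counts in control replicates 1, 2 and 3. It did not pass the filter, and the unfiltered edgeR fit gave a log2 fold change of 0.17 with an adjusted p of 0.977. The 0 in sFlt1 replicate 3 allows a level of up to 0.069 CPM by the value of 3 counts, and of up to 0.0848 CPM by the two-sided 95% Poisson interval.

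Of the 7 members that were not picked, 5 passed the filter and 0 passed an adjusted p of 0.05 by edgeR, where 0 of all 19899 genes (0.0%) did so and the smallest adjusted p was 0.417. At an unadjusted p under 0.05 there were 0 of the 5, against 2204 of all 19899 genes (11.1%). Of all 19899 genes, 963 (4.84%) were under that p and higher in sFlt1 mice. Limma voom likewise called 0 members, and DESeq2 called 0 of the 7, against 426 of the 21080 genes it gave an adjusted p (2.02%). 0 of the 7 had every sFlt1 library above every control library, which held for 8.76% of all genes tested. Their median log2 fold change was 0.64 over the 5 that passed the filter and 0.64 over all 7 in the unfiltered fit, beside 0.02 over all genes tested. It was 0.02 without sFlt1 replicate 1 and 1.17 without both libraries with Xist reads. In the authors' deposited table, made with DESeq2, the adjusted p of these 7 genes ran from 0.619 for Cd4 to 0.991 for Cd3e.

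**Figure D2:**
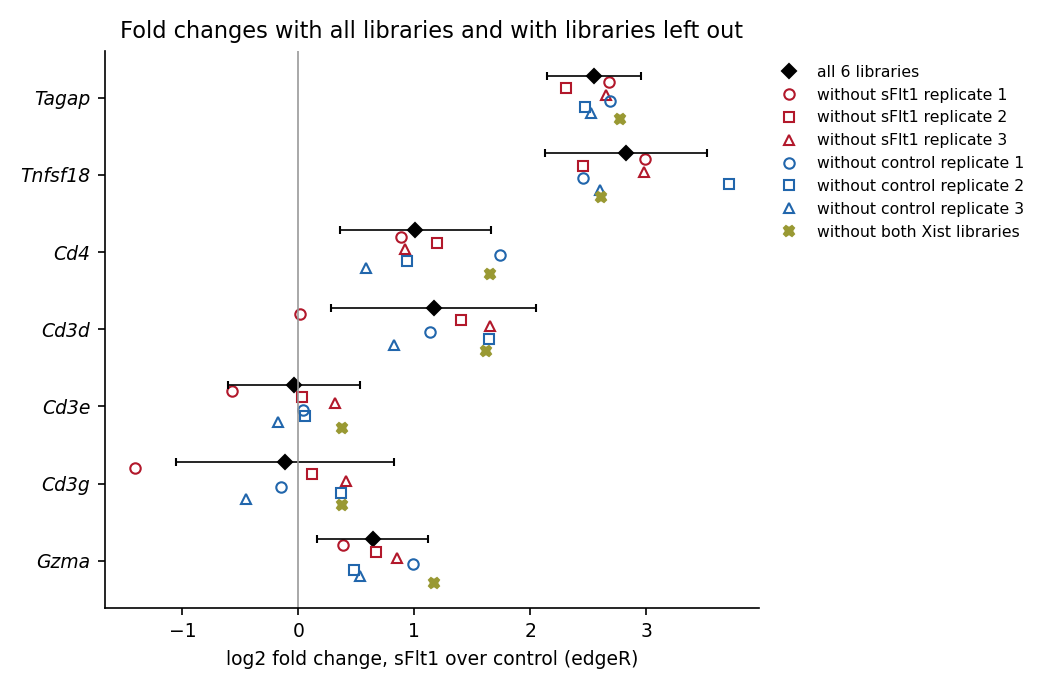
Log2 fold change of sFlt1 over control by edgeR for the 7 genes that passed the filter, with all 6 libraries (diamonds, bars are the SE) and with libraries left out. Tagap stays between 2.31 and 2.77 and Tnfsf18 between 2.45 and 3.71, while Cd3d moves to 0.02 without sFlt1 replicate 1 and Cd3e and Cd3g fall on both sides of 0.

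Per length, the picked genes had the highest means of the 9 in sFlt1 mice, the group whose high values they were picked for. On the scale of CPM per kb of exon (GENCODE M21, GRCm38), the level of Tnfsf18 was 2.06 ± 0.812 in sFlt1 mice and 0.293 ± 0.242 in controls (SD, n = 3 each). That of Tagap was 1.68 ± 0.444 in sFlt1 mice and 0.286 ± 0.0375 in controls. Gzma, at 1.03 ± 0.346 in sFlt1 mice and 0.655 ± 0.226 in controls, had the highest level in controls, and next to it the levels of Tnfsf18, Tagap and Cd4 (0.439 ± 0.109 in sFlt1 mice and 0.219 ± 0.16 in controls) lay within each other's spread in controls. The remaining 5 genes had means of 0.114 to 0.281 in sFlt1 mice and 0.051 to 0.185 in controls. Their ranges overlapped in sFlt1 mice, while in controls Cd8a, the lowest at 0.051 ± 0.0159, stayed below every value of Cd3e, Cd3g and Nkg7.

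Ptprc (CD45), carried by all white blood cells, was used as a scale for the leukocyte signal. Whether the reads of Tagap and Tnfsf18 came from cells with Ptprc was not tested. It had 23.6, 12.3 and 7.98 CPM in sFlt1 replicates 1, 2 and 3, against 10.6, 11.5 and 11.4 CPM in control replicates 1, 2 and 3 (log2 fold change 0.39, SE 0.41, edgeR adjusted p = 0.739). Tagap had 18.6, 54.6 and 54.8 counts per 100 Ptprc counts in sFlt1 replicates 1, 2 and 3, against 9.55, 6.79 and 7.48 in control replicates 1, 2 and 3. Tnfsf18 had 14.0, 50.2 and 41.2 in sFlt1 mice, against 2.25, 10.2 and 3.54 in controls, in the same order. For both genes the sFlt1 values stood above all control values, and the lowest of them was sFlt1 replicate 1, the library richest in Ptprc. The summed Cd3 chains had 12.7, 8.66 and 4.90 counts per 100 Ptprc counts in sFlt1 replicates 1, 2 and 3, against 11.5, 15.1 and 6.69 in control replicates 1, 2 and 3, and the groups overlapped. There were 1.47, 6.31 and 11.2 Tagap counts for each Cd3 count in sFlt1 replicates 1, 2 and 3, against 0.829, 0.449 and 1.12 in control replicates 1, 2 and 3. The order of these ratios among sFlt1 mice follows that of the Cd3 counts, the denominator, which varied more than Tagap. In bulk tissue, more or fewer cells of a type and more or less RNA per cell cannot be told apart.

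**Figure D3:**
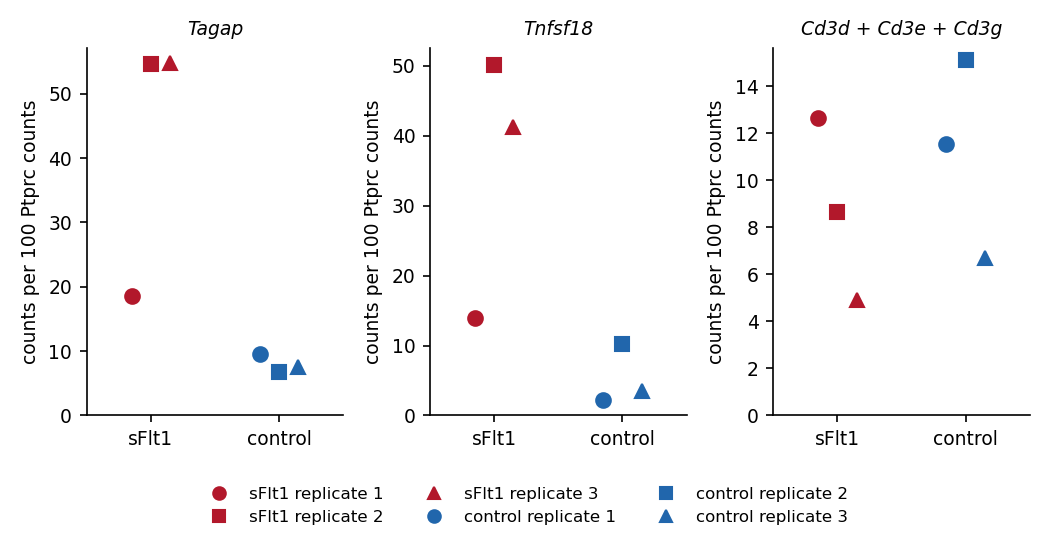
Counts per 100 Ptprc counts in each library for Tagap, Tnfsf18 and the summed Cd3d, Cd3e and Cd3g, sFlt1 left of control, on linear axes that start at 0. The lowest sFlt1 values of Tagap (18.6) and Tnfsf18 (14.0) stand above the highest control values (9.55 and 10.2), while the Cd3 sums of the groups overlap.

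The T and NK members shared the library they were highest in: sFlt1 replicate 1 had the highest CPM for 7 of the 7 genes that were not picked, and sFlt1 replicate 3 the lowest for 4 of them. For Cd4 the lead was small, at 2.07 CPM (95% Poisson interval 1.58 to 2.67) against 1.98 CPM (1.58 to 2.44) in sFlt1 replicate 3. The share of all genes highest in sFlt1 replicate 1 is not given here. Replicate 1 of sFlt1 also stood apart in other cells. The 8 neutrophil markers, each highest there, summed to 537, 94.3 and 26.9 CPM in sFlt1 replicates 1, 2 and 3, against 95.2, 21.7 and 89.0 CPM in control replicates 1, 2 and 3. The 8 skeletal muscle markers summed to 126, 2.03 and 2.34 CPM in sFlt1 mice, against 3.20, 26.8 and 2.55 CPM in controls, in the same order. Summed B and plasma cell markers (9 with values) had 53.2, 9.54 and 7.84 CPM in sFlt1 mice, against 14.5, 35.9 and 23.4 CPM in controls. These markers were thus high where the T and NK genes were high, and their part in those values was not tested. Tagap and Tnfsf18 were highest in sFlt1 replicate 2, where none of these sums was highest. The 10 macrophage markers summed to 110, 87.6 and 151 CPM in sFlt1 mice, against 93.9, 54.2 and 111 CPM in controls, and the 8 dendritic cell markers to 25.4 to 28.0 CPM in sFlt1 mice, against 31.6 to 32.0 CPM in controls. Most of the dendritic cell sum was Zbtb46, at 17.5 to 22.1 CPM in sFlt1 mice and 20.1 to 26.0 CPM in controls. Of the 7 dendritic cell markers tested, 3 had a log2 fold change above 0 and 4 below. Only 1, Itgax, was higher in every sFlt1 library, which held for 8.76% of all genes tested. It had 2.47 to 4.62 CPM in sFlt1 mice and 1.61 to 2.25 CPM in controls. The 7 mast cell markers summed to 24.7, 19.9 and 56.3 CPM in sFlt1 mice, against 14.4, 9.05 and 29.4 CPM in controls. Most of that sum was Kit, at 19.0, 19.2 and 55.5 CPM in sFlt1 replicates 1, 2 and 3, against 13.6, 8.73 and 29.0 CPM in control replicates 1, 2 and 3. The other 6 mast cell markers were each highest in sFlt1 replicate 1, the library where the T and NK genes were highest. The summed mature olfactory neuron markers were lower in every sFlt1 library, at 2291 to 7868 CPM in sFlt1 mice, against 8863 to 11890 CPM in controls. The part of these markers in the values of Tagap and Tnfsf18 was not tested.

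**Figure D4:**
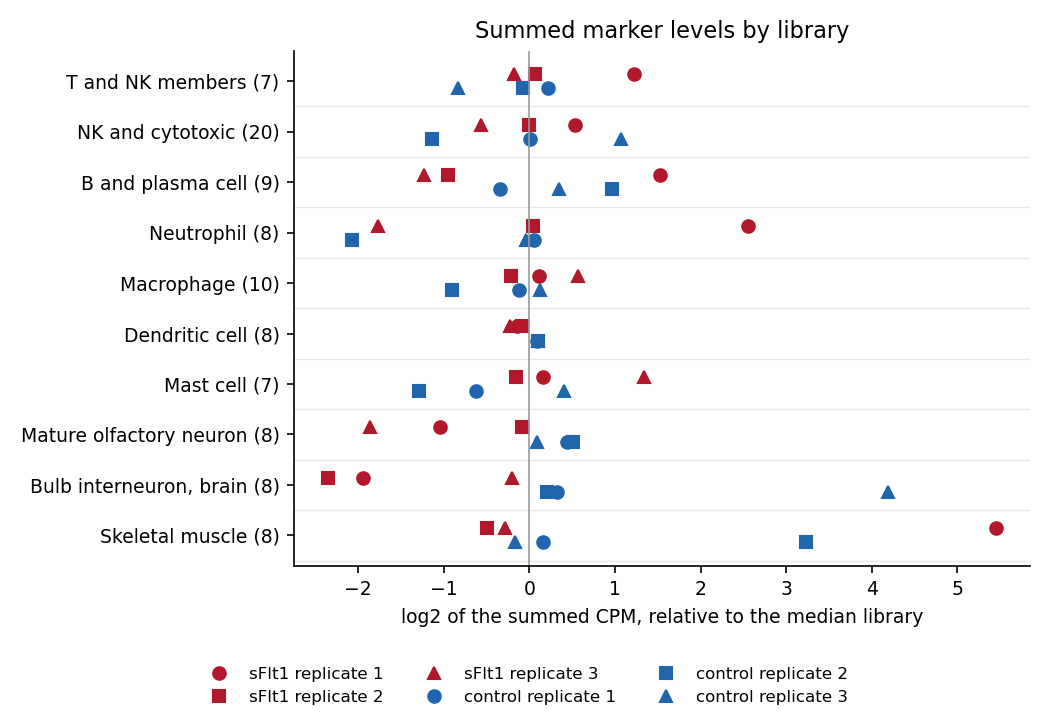
Summed CPM of each marker list in every library, as log2 relative to the median library of that list, with the number of genes in brackets and sFlt1 points above control points. The sums of the 7 T and NK members and of the neutrophil, B cell and muscle markers are highest in sFlt1 replicate 1. The brain sum is highest in control replicate 3. So is the sum of the 20 further NK and cytotoxic genes, at 13.2 CPM, of which Tbx21 made 7.69 CPM.

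Around the members, the wider T cell programme gave values on both sides of 0 and 0 calls by edgeR, voom or DESeq2. Of 18 genes that carry the T cell receptor signal, 13 were tested, 10 with an estimate above 0 and 3 below, with a median log2 fold change of 0.29. For all genes tested 51.3% of estimates were above 0. At an unadjusted p under 0.05 there were 0 of the 13. Lat, the adaptor that links the receptor to its effectors, had 2.91, 1.29 and 0.736 CPM in sFlt1 replicates 1, 2 and 3, against 0.682, 1.10 and 0.514 CPM in control replicates 1, 2 and 3 (log2 fold change 1.10, SE 0.63, edgeR adjusted p = 0.547). Rasgrp1, a Ras activator that neurons make too, had 10.5 to 36.0 CPM in sFlt1 mice, against 12.8 to 177 CPM in controls, the highest value being that of control replicate 3, the library rich in brain markers. Of 21 genes of T cell identity and costimulation, 17 had values and 9 were tested, 6 above 0 and 3 below, with a median of 0.29 and 0 at an unadjusted p under 0.05. The T cell receptor constant genes Trac, Trbc1, Trbc2 and Trdc were not analysed here. Tcf7, a transcription factor of naive and memory T cells, had 17.1, 6.68 and 13.2 CPM in sFlt1 mice, against 9.79, 5.06 and 9.05 CPM in controls (log2 fold change 0.63, SE 0.44, edgeR adjusted p = 0.611). Bcl11b, needed for T cell commitment and also made by neurons, had 33.9 to 97.4 CPM in sFlt1 mice and 68.1 to 92.1 CPM in controls.

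Of 20 further NK and cytotoxic genes, 8 were tested, 6 above 0 and 2 below, with a median of 0.49, and edgeR, voom and DESeq2 called 0. Klre1, an NK receptor gene, was the 1 gene at an unadjusted p under 0.05, and it lay below 0. It had 0.0702, 0.327 and 0.115 CPM in sFlt1 replicates 1, 2 and 3, against 0.504, 0.606 and 2.33 CPM in control replicates 1, 2 and 3, so the groups did not overlap (log2 fold change -2.69, SE 0.86, edgeR adjusted p = 0.432), as for 9.51% of all genes tested in that direction. Its highest library was again control replicate 3. Tbx21, the T-bet gene of NK and Th1 cells that mouse bulb projection neurons also make, had 0.327 to 1.17 CPM in sFlt1 mice, against 0.285, 0.712 and 7.69 CPM in controls, with the highest value in control replicate 3. Ccl5, a chemokine of cytotoxic cells, had 0.368 to 1.31 CPM in sFlt1 mice and 0.463 to 0.919 CPM in controls.

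Tnfsf18 belongs to a family of ligands that act on immune and epithelial cells. Of 17 other TNF superfamily ligands, 11 were tested, 8 above 0 and 3 below, with a median log2 fold change of 0.88 and 0 calls by edgeR, voom or DESeq2. At an unadjusted p under 0.05 there were 5 of the 11, against 11.1% of all genes tested, and 4 of the 11 had every sFlt1 library above every control library, against 8.76% of all genes. Tnfsf8, the CD30 ligand, had 0.632, 0.786 and 3.13 CPM in sFlt1 replicates 1, 2 and 3, against 0.386, 0.321 and 0.156 CPM in control replicates 1, 2 and 3 (log2 fold change 2.40, SE 0.78, edgeR adjusted p = 0.432). Tnfsf10, the death ligand TRAIL, had 4.81, 3.97 and 4.99 CPM in sFlt1 mice, against 2.49, 2.21 and 2.77 CPM in controls (log2 fold change 0.88, SE 0.35, edgeR adjusted p = 0.44). Both were highest in sFlt1 replicate 3, unlike Tnfsf18. Eda, a ligand of epithelial development, had 5.09, 5.17 and 6.07 CPM in sFlt1 mice, against 3.23, 2.81 and 3.44 CPM in controls (log2 fold change 0.78, SE 0.33, edgeR adjusted p = 0.45).

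Of 24 TNF superfamily receptors, 21 were tested, 15 above 0 and 6 below, with a median of 0.60, and edgeR and voom called 0, with 3 of the 21 at an unadjusted p under 0.05, against 11.1% of all genes tested. DESeq2 called 1 higher, Edar, where it called 0.574% of all its genes higher. Edar, the Eda receptor of skin appendages, had 1.44, 2.10 and 1.33 CPM in sFlt1 replicates 1, 2 and 3, against 0.653, 0.285 and 0.402 CPM in control replicates 1, 2 and 3 (log2 fold change 1.85, SE 0.49, edgeR adjusted p = 0.432, DESeq2 adjusted p = 0.0285). Tnfrsf11a (RANK) had 5.83 to 6.48 CPM in sFlt1 mice, against 2.24 to 3.77 CPM in controls (log2 fold change 1.14, SE 0.37, edgeR adjusted p = 0.432). Tnfrsf21 (DR6), a death receptor of neurons, had 98.3 to 147 CPM in sFlt1 mice, against 149 to 213 CPM in controls (log2 fold change -0.60, SE 0.23, edgeR adjusted p = 0.44).

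Genes whose pattern over the 6 libraries was like that of Tagap were found by the root-mean-square (RMS) difference of centred log2 CPM, among 16789 genes with a mean of at least 1 CPM. The nearest was Dynlt1b, a dynein light chain gene on chromosome 17, at an RMS of 0.317. It had 19.0, 31.8 and 17.7 CPM in sFlt1 replicates 1, 2 and 3, against 6.32, 5.84 and 3.42 CPM in control replicates 1, 2 and 3. Dynlt1b has close copies on the same chromosome, and how reads were split between them is not known, so its level is uncertain. Among the nearest were also the noncoding RNA E330013P04Rik at 0.387 and Edar at 0.398. None of these is a T or NK marker of the lists used here, but the search left out the members and all genes under 1 CPM. Such genes include Cd2 (0.585 CPM) and Zap70 (0.836 CPM). Tagap was also picked for its rise, so genes near it in pattern are higher in sFlt1 mice by that choice. Nothing is read from which genes are nearest. Tnfsf18, set against the same genes, stood at rank 184, at an RMS of 0.75.

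For Tnfsf18 the nearest genes were Selenbp2, a selenium-binding protein gene, at an RMS of 0.698, the noncoding RNA Gm16006 at 0.754, Dynlt1b at 0.762 and the pseudogene Gm5898 at 0.772. Selenbp2 had 5.30, 7.03 and 12.1 CPM in sFlt1 replicates 1, 2 and 3, against 0.801, 4.31 and 1.90 CPM in control replicates 1, 2 and 3, with control replicate 2 the highest control for both genes. For the summed Cd3 chains the nearest genes included the noncoding RNA Gm47701 at 0.184, Nat8f2 at 0.241 and Gmppb at 0.251. Gmppb, which makes a sugar nucleotide for glycoproteins, had 23.8, 9.01 and 4.39 CPM in sFlt1 mice, against 10.4, 11.4 and 8.85 CPM in controls, which like the Cd3 sum was highest in sFlt1 replicate 1 and lowest in sFlt1 replicate 3.

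Since Dynlt1b lies 1.45 Mb from Tagap, the tested genes within 2 Mb of each picked gene were read too, a choice made after their values were seen. Around Tagap, 5 of 29 other tested genes had every sFlt1 library above every control library, and 4 of 28 (14.3%) when Dynlt1b, which prompted the look, is left out. Another 3 of the 29 (10.3%) had every sFlt1 library below. Over all genes tested the shares were 8.76% and 9.51%, and with so few genes in a chosen region nothing is read from the difference. Their median log2 fold change was 0.06. Besides Dynlt1b (2.14, SE 0.38, edgeR adjusted p = 0.432), the 5 were the pseudogene Gm2808 (4.32, SE 0.86), Ezr (0.91, SE 0.40), Prr18 (0.82, SE 0.27) and Sytl3 (0.74, SE 0.37). Ezr encodes ezrin, which ties membranes to actin, and had the highest level of these, with means of 497 CPM in sFlt1 mice and 264 CPM in controls. The 3 that lay below were Pde10a (-2.35, SE 0.63), the noncoding RNA Gm1604a (-1.77, SE 0.43), 0.0565 Mb from Tagap, and 1700010I14Rik (-0.94, SE 0.50). The nearest protein-coding neighbour, Rsph3a, had 7.79 to 14.9 CPM in sFlt1 mice and 9.66 to 14.4 CPM in controls. Around Tnfsf18, 3 of 31 other tested genes (9.68%) lay above and 2 (6.45%) below without overlap, with a median of -0.05. The mice are crossbred, and differences in strain sequence within these regions were not examined here.

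**Figure D5:**
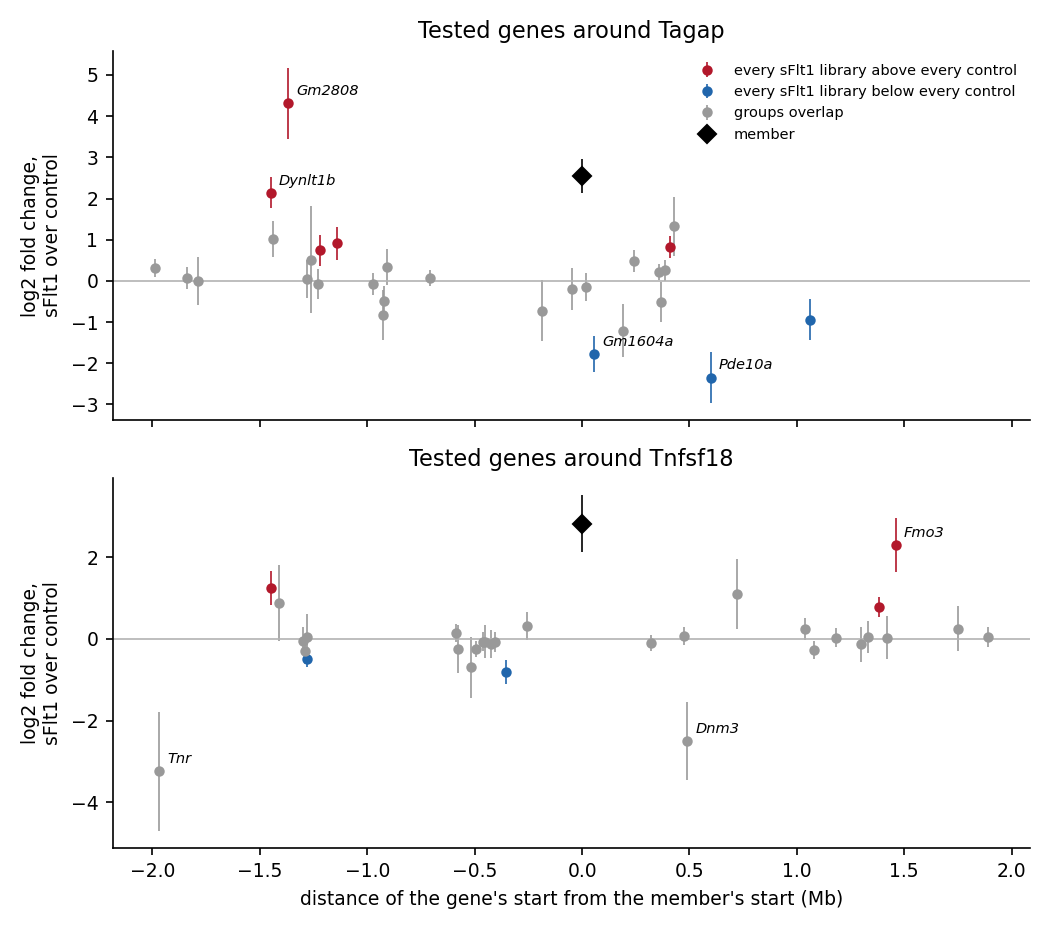
Log2 fold change of sFlt1 over control (points, bars are the SE) of each tested gene within 2 Mb of Tagap (top) and Tnfsf18 (bottom), against the distance between gene starts in Mb. Dynlt1b and Gm2808 stand above 2 near the left of the upper panel, and most genes in both panels lie near 0.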

How the data were processed

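Bulk RNA-seq of 200 ng of total RNA per mouse gave 1 library for each of 3 sFlt1 and 3 control mice. The deposited gene table of the authors gives unnormalized read counts for 55414 Ensembl entries, of which 6250 carried no values, per the file headers. Per the submitters' processing notes the build was GRCm39 and the tools were HTSeq 2.0.1, TopHat2 2.2.1, cutadapt 3.5 and DESeq2 1.26.0. Their settings are not stated here by any source. The authors' deposited log2 fold changes and adjusted p-values were quoted only where named. Another 48 columns of per-sample values were not used.

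The test on the counts was edgeR's quasi-likelihood test (version 4.0.16 in R 4.3.3) on TMM-scaled libraries with no covariate, after filterByExpr by group, and p-values were adjusted by Benjamini-Hochberg over 19899 genes, with a threshold of 0.05. The SE is the log2 fold change over the square root of F. DESeq2 1.42.0 (all genes) and limma 3.58.1 (voom) were alternatives, as were other scaling factors and filters, leaving out each mouse, the replicate number as a block, counts without receptor genes, and values relative to Ptprc. DESeq2 without both libraries with Xist reads was added after seeing the data. The closest pair of libraries, control replicates 1 and 2, differed by 83.9 times the sampling noise (chi-square over its degrees of freedom), so no library was a repeat. P-values set the difference between the groups against the spread between mice of a group, which edgeR estimates with information shared over genes. Exon lengths are from GENCODE M21 and served only for levels per kb. The code was tested on simulated data. The check on finding changed genes was made at a spread below that of these data, so it does not show what could be found here.

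The members and lists were chosen with earlier results of these data known. Named were the 9 members, those of each list that had the smallest p or the highest mean CPM, and genes nearest in pattern. The log2 CPM used for likeness had a prior count of 2. Some genes that the rule names are given by their list only, and some results are not reported here.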

Additional observations from a re-analysis of the deposited data

How the results depend on the processing

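Tagap stayed between 2.26 and 2.77 on the log2 scale under all alternatives run, and Tnfsf18 between 2.45 and 3.09, except at 3.71 without control replicate 2. Both were picked for their rise in these same libraries, so these ranges describe the processing and are no support for the rise. The counts of calls depended on the tool. EdgeR called 0 genes and DESeq2 426, while DESeq2 without both libraries with Xist reads called 1215. Leaving out each mouse gave 0 to 1 genes by edgeR, the 1 being the pseudogene Gm44964, named after its values were seen, without control replicate 2. Over the companion lists DESeq2 called 2 of 174 genes, against 426 of all 21080 (2.02%). Without both libraries with Xist reads DESeq2 called 13 of 177 list genes, against 1215 of all 20030. EdgeR called 0 over these lists, and without both of those libraries it also called 0 genes in all. 0 of the T and NK genes were called in any of these runs, and their median ran from 0.02 to 0.99 with 1 mouse left out. Cd3e was 0.38 by edgeR and 0.36 by DESeq2 without both libraries with Xist reads, -0.58 to 0.32 with 1 mouse left out, and -0.45 relative to Ptprc. Cd3g was 0.38 and 0.36 without both libraries with Xist reads and -1.41 to 0.41 with 1 mouse left out. Cd8a was 1.39 and Nkg7 0.17 in the unfiltered edgeR fit, and Nkg7 was -0.0569 without control replicate 2. Relative to Ptprc, Cd8a was -0.12 and Nkg7 -1.06. Values relative to Ptprc were not fitted by edgeR, so they are not a like measure. The edgeR log2 fold change of Ptprc, 0.39, is smaller than either shift. In sFlt1 replicate 3 Cd8a had 1 count and Nkg7 0, and nothing is read from the change of sign. The cause was not tested. Same-numbered mice deviated together with correlations of 0.0256, 0.246 and 0.357, so the numbers were not taken to pair the mice. With the replicate number as a block, edgeR called 0 genes, Tagap was 2.52, Tnfsf18 3.03 and Cd3d 0.81. Counts of 0 to 45 per library for the Cd3 chains, Cd8a, Nkg7 and Gzma limit what could be seen.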

Other observations

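Other cell types of the tissue had values that stand in no comparison of the members. Cd68, a lysosomal protein of macrophages, had 7.97, 9.91 and 18.0 CPM in sFlt1 replicates 1, 2 and 3, against 6.50, 2.49 and 3.96 CPM in control replicates 1, 2 and 3 (log2 fold change 1.47, SE 0.49, edgeR adjusted p = 0.432), while Csf1r, the growth factor receptor of macrophages, had 25.6 to 33.7 CPM in sFlt1 mice and 14.3 to 40.0 CPM in controls. Cpa3, a mast cell protease, had 0.262 to 1.68 CPM in sFlt1 mice, against 0 to 0.201 CPM in controls (log2 fold change 2.82, SE 1.12, edgeR adjusted p = 0.44). Itgax, the CD11c gene of dendritic cells and macrophages, had 2.47 to 4.62 CPM in sFlt1 mice, against 1.61 to 2.25 CPM in controls (log2 fold change 0.88, SE 0.41, edgeR adjusted p = 0.478). Of the 7 dendritic cell markers tested, 4 lay below 0. Among these was Siglech, at 0.115 to 1.47 CPM in sFlt1 mice and 0.801 to 5.75 CPM in controls (log2 fold change -1.79, SE 1.105, edgeR adjusted p = 0.572). Median log2 fold changes were 0.40 over 10 macrophage, 0.31 over 9 B and plasma cell, 1.13 over 7 neutrophil, -0.20 over 7 dendritic cell, 1.84 over 2 mast cell, 0.16 over 8 endothelial, 1.66 over 4 skeletal muscle and -0.47 over 6 erythroid markers that were tested, and edgeR, voom and DESeq2 called 0 of them. At an unadjusted p under 0.05, which 11.1% of all genes tested met, were 1 macrophage and 1 mast cell marker. Of 8 mature olfactory neuron markers, 8 lay below 0 (median -1.14), with 4 at an unadjusted p under 0.05. Of 8 bulb interneuron and brain markers, 8 lay below 0 (median -4.09), with 7 at an unadjusted p under 0.05 and 1, Th, called lower by DESeq2 (adjusted p = 3.8e-05), which called 1.45% of all its genes lower. Of all genes tested, 51.3% of estimates lay above 0.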
